A study of Mus musculus with 18 samples.

Results

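The genes described are 10 genes of the sperm tail: Akap3, Akap4, Fscb, Fsip1, Fsip2, Ropn1 and Ropn1l, whose proteins belong to or bind the fibrous sheath, and Odf1, Odf2 and Odf3, named for the outer dense fibres. They were chosen by their symbols, and all 10 were found among the 20979 genes of the deposited table, which gives expression in RPKM (reads scaled by gene length and by the library's total). Testis RNA from ICR mice, an outbred stock, aged 10 weeks, was sequenced in 18 libraries, 3 in each of 6 groups. Animals of HFD_STZ_AOS_FMT had a high fat diet, STZ (streptozotocin, which destroys pancreatic beta cells) and FMT, a transfer of fecal microbiota, labelled with AOS at 10 mg/kg. HFD_STZ_control_FMT had the same diet and STZ with FMT labelled as control, HFD_STZ_AOS had the diet and STZ with AOS at 10 mg/kg, and HFD_STZ had the diet and STZ alone. The AOS group had AOS at 10 mg/kg without the diet or STZ, and the control group had none of these. The labels do not spell out AOS, name no route or duration of any treatment, and do not say whether each library came from its own animal, so p-values measure the spread between these libraries, which may be technical.

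The mammalian sperm tail is built around an axoneme of microtubules. Outer dense fibres run along the axoneme through the midpiece and the principal piece, and in the principal piece they are surrounded by the fibrous sheath. The sheath is mainly made of the anchoring proteins AKAP4 and AKAP3, which tether protein kinase A and glycolytic enzymes, and male mice without Akap4 have sperm that move poorly. These structures are assembled in spermatids, the haploid germ cells that turn into sperm, so in whole testis their transcripts come mainly from those cells, and fewer spermatids cannot be told apart from less RNA per spermatid.

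The RPKM values of a library summed to between 588081 and 646822, and 13022 to 13490 genes reached 1 RPKM. The smallest nonzero values of low genes, each taken as a single read, implied a depth of about 12800000 reads (median over 970 genes, quartiles 7400000 and 14300000). Being minima over all 18 libraries, they lean toward the deeper ones. That depth gives roughly 1200 reads per library for Fsip1, the gene with the fewest, and 95600 for Odf2. All 14 elongating spermatid markers and all 15 round spermatid markers in the table were above 1 RPKM in at least 1 library. Crisp1, an epididymal gene, stood at 117 to 165 RPKM in 4 libraries (replicate 3 of HFD_STZ_AOS_FMT, replicate 2 of HFD_STZ_control_FMT, replicate 3 of HFD_STZ_AOS and replicate 3 of control) and at 0.05 to 23.1 RPKM in the other 14. Of the 13 epididymal markers, 6 stayed under 1 RPKM in every library and 1 of these was listed at 0 throughout. Some values are also given without these 4 libraries.

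The 10 genes spanned a wide range of levels and together held 1.00% to 1.07% of the summed RPKM in each library. The control libraries, at 1.038% to 1.066%, lay above those of HFD_STZ_AOS_FMT, HFD_STZ_control_FMT and HFD_STZ_AOS, which reached at most 1.0365%. Control overlapped HFD_STZ and AOS, and these shares were not tested. Odf2 was the highest, at 1669 to 1846 RPKM (mean 1739.9), and ranked 17 to 20 among all genes of a library. Odf1 followed at 1159.7 to 1368 RPKM, Ropn1l at 1141 to 1342, Akap4 at 822 to 936, Ropn1 at 361 to 441, Akap3 at 332 to 371, Odf3 at 158 to 198, Fscb at 104 to 125, Fsip1 at 39.1 to 49.2 and Fsip2 at 15.3 to 20.8. Neighbours in this order did not overlap over the 18 libraries, except Odf1 with Ropn1l and Ropn1 with Akap3. Odf1 was above Ropn1l in 16 of 18 libraries, and Ropn1 was above Akap3 in 18 of 18.

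**Figure D1:**
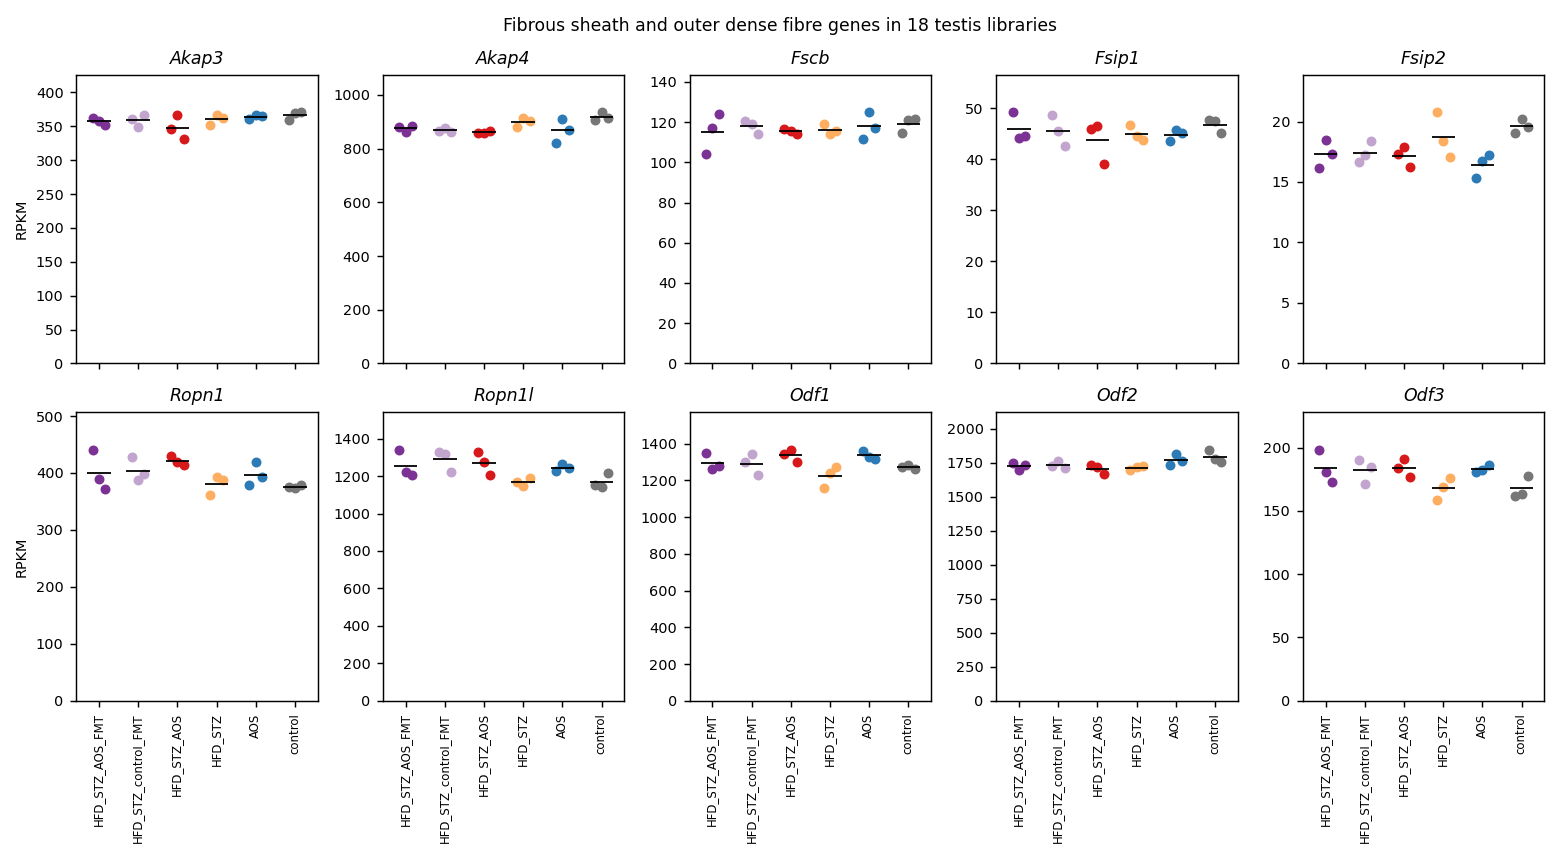
Level of each of the 10 genes in RPKM (vertical axes, each from 0) in the 6 groups (horizontal axes). Points are libraries and bars are means of 3. Each gene stays within a narrow band over all 18 libraries, from 1.11 times between the lowest and the highest library for Odf2 to 1.36 times for Fsip2.

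The genes varied little between libraries. Their coefficients of variation over all 18 libraries ran from 2.44% for Odf2, 2.72% for Akap3 and 3.14% for Akap4 to 5.96% for Odf3 and 8.17% for Fsip2. Their median was 4.67%, against 9.49% over the 13874 genes tested and 6.08% over the 4676 tested genes whose mean level lay between those of Fsip2 and Odf2. Below the last of these medians lay 9 of the 10 genes, Fsip2 being the exception. That set was bounded by level but not matched to the level of each gene. The genes from Odf2 down to Fscb ranked 1215 or better in every library, against 4288 to 5063 for Fsip2. How far their small spread goes with their high level was not tested. The comparison of spreads is descriptive, and counting error alone would give about 0.32% for Odf2 and 2.88% for Fsip1 at the depth above.

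Differences between groups were tested with limma on log2(RPKM + 1) over all 13874 genes that reached 1 RPKM in at least 3 libraries, and all 10 genes were among them. Each p-value was adjusted by Benjamini and Hochberg's method over all genes tested, with a threshold of 0.05. No comparison called any of the 10 genes. The differences below are therefore values that did not pass, given as mean log2 difference ± SE.

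AOS was compared with its absence over 6 libraries against 6, as the mean of AOS minus control and of HFD_STZ_AOS minus HFD_STZ. In this comparison 0 of the 10 genes were called, against 2.34% of all genes tested, and 6 of the 10 had an unadjusted p under 0.05, against 20.7% of all genes. The 4 genes with a positive difference were Odf3, Ropn1, Ropn1l and Odf1, and the 6 with a negative one were Fsip2, Akap4, Fsip1, Akap3, Odf2 and Fscb. The median difference of the 10 genes was -0.01, and that of all genes tested was -0.02, with 43% of them positive. With libraries scaled by median ratios, Odf2 and Fscb turned slightly positive, at 0.0062 and 0.0077, so that 6 of 10 were positive.

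**Figure D2:**
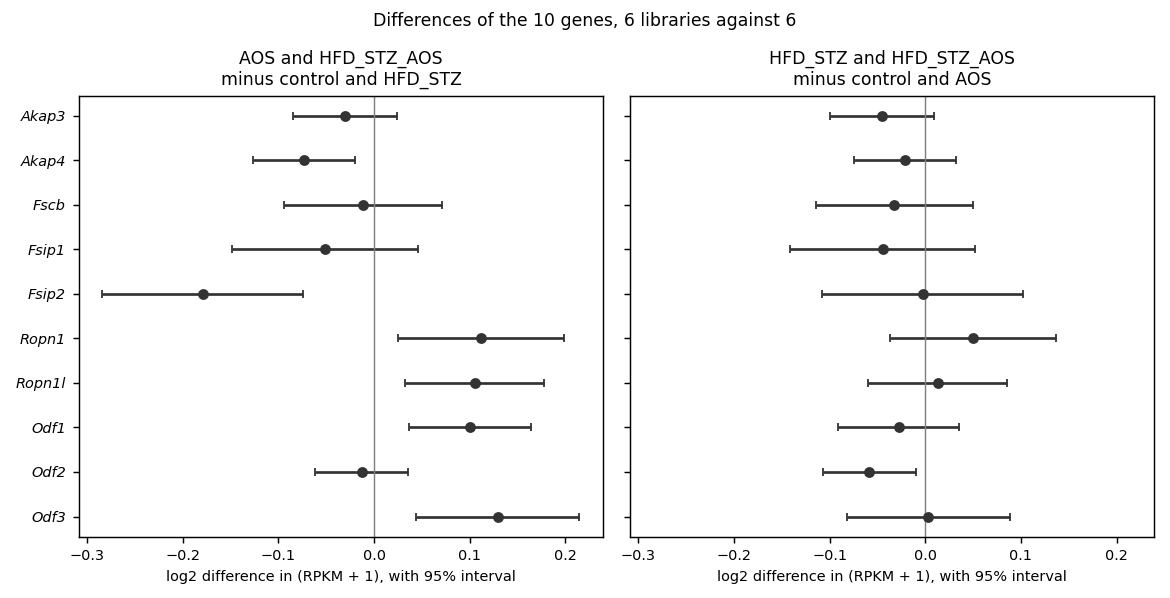
Log2 difference of each gene with its 95% interval (horizontal axes), for AOS and HFD_STZ_AOS minus control and HFD_STZ (left) and for HFD_STZ and HFD_STZ_AOS minus control and AOS (right), 6 libraries against 6. With AOS, Odf1, Odf3, Ropn1 and Ropn1l lie above 0 and Fsip2 and Akap4 below it, while with the diet and STZ only the interval of Odf2 excludes 0; none passed after adjustment.

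Akap4 encodes the main scaffold protein of the sheath and lies on the X chromosome (chrX:7067519-7078609, plus strand, mm10). It stood at 857, 858 and 866 RPKM in HFD_STZ_AOS and 822, 910.2 and 871 RPKM in AOS, against 879, 915 and 902 RPKM in HFD_STZ and 906, 936 and 915 RPKM in control. All 3 HFD_STZ_AOS libraries lay below the 3 HFD_STZ libraries, while 1 AOS library, at 910.2 RPKM, fell inside the range of control. Over the 6 libraries with AOS the mean was 864 ± 28.5 RPKM, against 909 ± 18.6 RPKM in the 6 without (SD), a log2 difference of -0.07 ± 0.03 (limma, adjusted p = 0.118). Akap3, its partner in the sheath, lies on chromosome 6 (chr6:126853098-126874308, plus strand) and is assembled before AKAP4. It stood at 346, 366 and 332 RPKM in HFD_STZ_AOS and 361, 366 and 366 RPKM in AOS, against 353, 367 and 363 RPKM in HFD_STZ and 360.0, 369 and 371 RPKM in control. These ranges overlapped in both pairs, with a log2 difference of -0.03 ± 0.03 (95% interval -0.08 to 0.02), which was -0.0094 without the 4 libraries high in Crisp1.

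Ropn1 and Ropn1l encode ropporin and its relative, small proteins that bind AKAP3 and AKAP4 through a domain like that of a kinase A regulatory subunit. Ropn1 (chr16:34649921-34678618, plus strand) stood at 431, 419 and 413 RPKM in HFD_STZ_AOS and 379, 420.1 and 392 RPKM in AOS, against 361, 393 and 387 RPKM in HFD_STZ and 376, 374 and 379 RPKM in control. Neither pair overlapped, although the lowest AOS value, 379 RPKM, was next to the highest control value. Ropn1l (chr15:31441211-31453737, minus strand) stood at 1329, 1275 and 1206 RPKM in HFD_STZ_AOS and 1228, 1263 and 1243 RPKM in AOS, against 1166, 1147 and 1189 RPKM in HFD_STZ and 1153, 1141 and 1215 RPKM in control. These pairs did not overlap either. The 6-against-6 differences were close to each other, 0.11 ± 0.04 for Ropn1 (limma, adjusted p = 0.14) and 0.10 ± 0.03 for Ropn1l (adjusted p = 0.101). An annotated processed pseudogene, Gm6361, lies inside Ropn1l on the same strand and has no row of its own in the table, so reads shared with it cannot be told apart.

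Fscb encodes a calcium-binding protein of the sheath that is a target of protein kinase A, and is a single-transcript gene on chromosome 12 (chr12:64471330-64474690, minus strand). Its level was 117 ± 4.45 RPKM in the 6 libraries with AOS and 118 ± 3.29 RPKM in the 6 without (SD), and no pair of groups separated. Fsip1 and Fsip2 encode sheath-interacting proteins, and variants of human FSIP2 are known in infertile men with sperm tail defects. Fsip1 (chr2:118130424-118256966, minus strand) had 44.3 ± 2.75 RPKM with AOS and 45.9 ± 1.62 RPKM without, a log2 difference of -0.05 ± 0.05 (95% interval -0.15 to 0.05). Its lowest library, at 39.1 RPKM, was replicate 3 of HFD_STZ_AOS, 1 of the 4 libraries high in Crisp1, and without these 4 the difference was -0.02.

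Fsip2 (chr2:82943634-83008937, plus strand) showed the largest difference of the 10 genes with AOS, and also has by far the longest transcript of them, at 21116 bases. It stood at 17.3, 17.9 and 16.3 RPKM in HFD_STZ_AOS and 15.3, 16.7 and 17.2 RPKM in AOS, against 20.8, 18.4 and 17.1 RPKM in HFD_STZ and 19.1, 20.2 and 19.6 RPKM in control. The AOS libraries were all below the control libraries, while HFD_STZ_AOS overlapped HFD_STZ, whose 3 libraries were the most spread of any group. Over 6 libraries against 6 the means were 16.8 ± 0.916 RPKM with AOS and 19.2 ± 1.34 RPKM without (SD), a log2 difference of -0.18 ± 0.05 (limma, adjusted p = 0.0623). Without replicate 3 of HFD_STZ, at 17.1 RPKM, the difference was -0.21 and passed the threshold (limma, adjusted p = 0.0397). In AOS against control alone it was -0.24 ± 0.07 (adjusted p = 0.19), and in HFD_STZ_AOS against HFD_STZ -0.12 ± 0.07 (adjusted p = 0.517).

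Among the outer dense fibre genes, Odf1 encodes the principal structural protein of the fibres, a cysteine-rich protein related to small heat shock proteins. It lies on chromosome 15 (chr15:38219203-38226735, plus strand). It stood at 1346, 1368 and 1303 RPKM in HFD_STZ_AOS and 1363, 1329.7 and 1317 RPKM in AOS, against 1159.7, 1239 and 1273 RPKM in HFD_STZ and 1271, 1286 and 1264 RPKM in control. It was the only one of the 10 genes whose 6 libraries with AOS, at 1303 to 1368 RPKM with a median of 1338, did not overlap the 6 without, at 1159.7 to 1286 RPKM with a median of 1268; of all genes tested 3.26% were separated in this way, 1.16% with the libraries with AOS higher. The log2 difference was 0.10 ± 0.03 (limma, adjusted p = 0.0783), and in HFD_STZ_AOS against HFD_STZ it was 0.13 ± 0.04 (adjusted p = 0.244).

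Odf2 (chr2:29889221-29931746, plus strand) encodes a fibre protein that is also made, as other isoforms, at the centrosome of many cell types, and the annotation gives it 25 transcripts, which the table does not separate. It stood at 1734, 1717 and 1669 RPKM in HFD_STZ_AOS and 1733, 1815 and 1759.7 RPKM in AOS, against 1697, 1722 and 1724 RPKM in HFD_STZ and 1846, 1776 and 1758 RPKM in control. With AOS its difference was -0.01 ± 0.02, with a 95% interval of -0.06 to 0.04. Odf3 (chr7:140847805-140851018, plus strand) encodes a protein found along the sperm tail. It stood at 184, 191 and 177 RPKM in HFD_STZ_AOS and 181, 183 and 186 RPKM in AOS, against 158, 169 and 176 RPKM in HFD_STZ and 162, 164 and 178 RPKM in control. Neither pair overlapped, and the difference over 6 against 6 was 0.13 ± 0.04 (limma, adjusted p = 0.09). Without the 4 libraries high in Crisp1 it was 0.16 ± 0.04 (adjusted p = 0.0604). The gene Gm45785, annotated on the opposite strand over Odf3, has no row in the table, and strand use by the authors is not given in the sources used here.

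In pairs of groups of 3, the libraries of 5 of the 10 genes did not overlap in AOS against control, against 22.5% of all genes tested. Odf1, Odf3, Ropn1 and Ropn1l were the 4 that lay higher, against 7.76% of all genes, and Fsip2 the 1 that lay lower, against 14.8%. In HFD_STZ_AOS against HFD_STZ the count was also 5, against 17.2% of all genes, with the same 4 genes higher, against 7.37%, and Akap4 lower, against 9.8%. Of the 10 differences 4 were positive in each pair, against 40.2% of all genes in AOS against control and 47.7% in HFD_STZ_AOS against HFD_STZ. With libraries scaled by median ratios, or with each library's trend on transcript length removed, 7 of 10 were positive in AOS against control and 6 of 10 in HFD_STZ_AOS against HFD_STZ. Without the 4 libraries high in Crisp1 these counts were 5 and 6. By limma 0 of the 10 genes were called in either pair, where 0% of all genes tested were called. With an unadjusted p under 0.05 stood 3 of the 10 genes in AOS against control (Akap4, Odf3 and Fsip2), against 13.9% of all genes, and 4 in HFD_STZ_AOS against HFD_STZ (Odf1, Odf3, Ropn1 and Ropn1l), against 12.5%. The interaction, which asks whether AOS acted differently with and without the diet and STZ, called 0 of the 10 genes and 0% of all genes, and 0 of the 10 had an unadjusted p under 0.05, against 4.61% of all genes. Its estimates were positive for 9 of the 10 genes, against 56.4% of all genes, but for 6 of 10 with libraries scaled by median ratios and for 7 of 10 without the 4 libraries high in Crisp1.

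The direction of these differences followed transcript length. The 4 genes with a longest annotated transcript of at most 1700 bases, Ropn1l (957), Odf1 (1105), Ropn1 (1147) and Odf3 (1629), were all higher with AOS, with a median difference of 0.11. The 6 genes with longer transcripts, from Fsip1 (2076) through Akap4 (3021), Akap3 (3153), Fscb (3361) and Odf2 (4291) to Fsip2 (21116), were all lower, with a median of -0.04. The cut of 1700 bases lies between Odf3 and Fsip1, where the signs of these genes change. The clean split is therefore a description at that cut and was not tested. Over the whole table the same cut gave a difference in the same direction. Of the 2724 tested genes with transcripts of at most 1700 bases, 70.7% were higher with AOS (median 0.06), and of the 10854 longer ones 35.9% were higher (median -0.03). The medians by length class fell from 0.10 in genes of up to 1000 bases to -0.07 in genes of over 5000 bases.

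**Figure D3:**
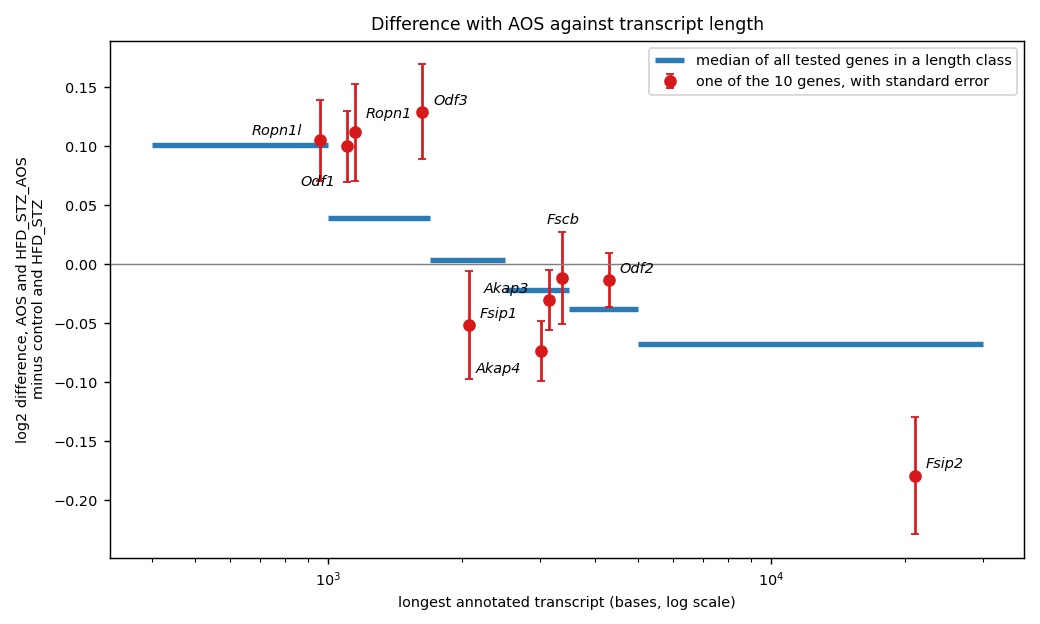
Log2 difference with AOS (6 libraries against 6, vertical axis) against the longest annotated transcript in bases (horizontal axis, log scale). Red points are the 10 genes with their standard errors, and blue bars are medians of all tested genes in 6 length classes. The 4 shorter genes lie at about 0.10 to 0.13 and Fsip2, the longest, at -0.18, with the all-gene medians falling from 0.10 to -0.07.

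Where each library's trend on transcript length was removed before the test, the differences with AOS were smaller for all 6 genes that had an unadjusted p under 0.05. Odf1 stood at 0.03, Ropn1l at 0.02, Ropn1 at 0.05, Fsip2 at -0.07 and Akap4 at -0.05 on the log2 scale. Odf3 kept a value of 0.10 ± 0.04 (limma, adjusted p = 0.226). Of the 10 genes 6 were then positive, Odf2 and Fscb having turned to 0.02 and 0.01, and limma called 0 of all genes tested, against 325 before the removal. Whether the length trend comes from the libraries' RNA or from a treatment was not tested.

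The diet with STZ was compared with its absence over 6 libraries against 6 (HFD_STZ and HFD_STZ_AOS minus control and AOS). Here 0 of the 10 genes were called, against 2.85% of all genes tested, and 1 had an unadjusted p under 0.05, against 18.8%. Odf2 was that gene, at 1710.2 ± 23.8 RPKM in the 6 libraries with the diet and STZ and 1781 ± 41.7 RPKM in the 6 without (SD), a log2 difference of -0.06 ± 0.02 (limma, adjusted p = 0.18). In HFD_STZ alone it stood at 1697, 1722 and 1724 RPKM, below all 3 control libraries at 1846, 1776 and 1758 RPKM. It was the only one of the 10 genes whose groups did not overlap in HFD_STZ against control, where 16.3% of all genes were separated, and 4.53% of all genes were separated and lower. Of the 10 genes 0 were called there, with 0% of all genes called, and 0 had an unadjusted p under 0.05, against 8.3% of all genes.

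The signs of the 10 differences with the diet and STZ are given as counts, without a test. In HFD_STZ against control 8 of the 10 differences were negative, with a median of -0.03, while 59.5% of all genes were higher (median 0.02). Only Ropn1 (0.02) and Odf3 (0.0019) were positive, and with libraries scaled by median ratios, or with the length trend removed, all 10 were negative with medians of -0.06. Over 6 libraries against 6, 7 of 10 were negative, while 64.7% of all genes were higher, and 9 of 10 were negative under either of these scalings. The libraries of 0 of the 10 genes were separated over 6 against 6, where 1.85% of all genes were. The lowest and highest 95% bounds among the 10 genes, over 6 libraries against 6, were -0.14 (Fsip1) and 0.14 (Ropn1). Without the 4 libraries high in Crisp1, 7 of 10 were negative in HFD_STZ against control, where Odf3 then stood at 0.04, and 6 of 10 over all libraries left.

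The transfer of fecal microbiota was compared with HFD_STZ in a pair of comparisons that share the 3 HFD_STZ libraries. In HFD_STZ_AOS_FMT against HFD_STZ, 0 of the 10 genes were called, against 0.0144% of all genes tested, and 2 (Odf3 and Ropn1l) had an unadjusted p under 0.05, against 14.5%. In HFD_STZ_control_FMT against HFD_STZ, 0 were called, against 0.00721% of all genes, and 1 (Ropn1l) had an unadjusted p under 0.05, against 16.2%. The 1 gene called there of all tested was Hsd3b6, a steroid enzyme among the Leydig cell markers, at 9.69 ± 1.21 RPKM in HFD_STZ_control_FMT and 29.4 ± 5.13 RPKM in HFD_STZ (SD, n = 3 each), a log2 difference of -1.50 ± 0.16 (limma, adjusted p = 0.00114), a call lost where only these groups were fitted (adjusted p = 0.0712). Ropn1l stood at 1342, 1219 and 1207 RPKM in HFD_STZ_AOS_FMT and 1327, 1319.7 and 1220.5 RPKM in HFD_STZ_control_FMT, against 1166, 1147 and 1189 RPKM in HFD_STZ. Both groups with FMT lay above all HFD_STZ libraries, with log2 differences of 0.10 ± 0.05 (limma, adjusted p = 0.341) and 0.14 ± 0.05 (adjusted p = 0.191).

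Odf3 stood at 198, 180.5 and 173 RPKM in HFD_STZ_AOS_FMT and 190.0, 171 and 185 RPKM in HFD_STZ_control_FMT, overlapping HFD_STZ at 158, 169 and 176 RPKM. Its log2 differences were 0.13 ± 0.06 (limma, adjusted p = 0.317) and 0.12 ± 0.06 (adjusted p = 0.329). Odf1 stood at 1349, 1265 and 1279 RPKM in HFD_STZ_AOS_FMT and 1302, 1343 and 1230.3 RPKM in HFD_STZ_control_FMT. Both groups overlapped HFD_STZ, and the differences were 0.08 ± 0.04 and 0.08 ± 0.04; without the 4 libraries high in Crisp1 they were 0.09 and 0.05. Akap4, at 866, 878 and 864 RPKM in HFD_STZ_control_FMT, lay below all 3 HFD_STZ libraries, and with 881, 863 and 884 RPKM in HFD_STZ_AOS_FMT it overlapped them.

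The libraries of 1 of the 10 genes did not overlap in HFD_STZ_AOS_FMT against HFD_STZ (Ropn1l), against 19.4% of all genes, 7.82% being higher. In HFD_STZ_control_FMT against HFD_STZ there were 2, against 24% of all genes: Ropn1l was higher, against 8%, and Akap4 lower, against 16%. Of the 10 differences 6 were positive in HFD_STZ_AOS_FMT and 7 in HFD_STZ_control_FMT, against 43.7% and 41.1% of all genes. The 4 genes with short transcripts were again all positive in both, with medians of 0.09 and 0.10, while of all tested genes up to 1700 bases 69.5% and 66% were higher. With the length trend removed, 9 of the 10 genes were positive in each comparison, at medians of 0.02 and 0.03, and none was called.

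Between the transfers themselves, HFD_STZ_AOS_FMT against HFD_STZ_control_FMT, 0 of the 10 genes were called, against 0.0216% of all genes tested, 0 had an unadjusted p under 0.05, against 4.58%, and 0 were separated, against 8.42%. Of the 10 differences 4 were positive, against 53.9% of all genes, and they ran from -0.04 for Ropn1l to 0.01 for Odf3. Without the 4 libraries high in Crisp1, 7 of 10 were positive. The 95% intervals of all 10 lay between -0.16 (Fsip2) and 0.15 (Fsip1). Over all 6 groups together, limma's F test called 0 of the 10 genes, against 0.0432% of all genes tested. The lowest adjusted p values were 0.203 for Fsip2 and 0.205 for Ropn1l, and both had an unadjusted p under 0.05, as did 21.1% of all genes.

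Ratios of RPKM between the genes within a library do not depend on how libraries are scaled, although they do depend on transcript length. They are given as a description, with no test, and the ratio to be shown was picked from 7 after the differences had been seen. The ratio of Odf1 to Akap4, of a dense fibre protein to the sheath scaffold, was 1.56 ± 0.05 in HFD_STZ_AOS and 1.54 ± 0.10 in AOS, against 1.36 ± 0.05 in HFD_STZ and 1.39 ± 0.01 in control (SD, n = 3 each). The 6 libraries with AOS spanned 1.46 to 1.66 and the 6 without 1.32 to 1.41, a log2 difference of 0.17 with no overlap. It was 1.48 ± 0.04 in HFD_STZ_AOS_FMT and 1.49 ± 0.05 in HFD_STZ_control_FMT, both above HFD_STZ. With the length trend removed the log2 difference with AOS was 0.09 and the 6 libraries with AOS overlapped the 6 without. By pairs, HFD_STZ_AOS stayed above HFD_STZ, at a log2 difference of 0.10, while AOS overlapped control, at 0.07. Both groups with FMT then overlapped HFD_STZ, at log2 differences of 0.05 (HFD_STZ_AOS_FMT) and 0.04 (HFD_STZ_control_FMT), against 0.12 and 0.13 before.

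Other ratios overlapped between the 6 libraries with AOS and the 6 without. The ratio of Odf1 to Odf2 had a log2 difference of 0.11, which was 0.0074 with the length trend removed, and Fsip1 to Fsip2 one of 0.14, which was 0.01. Odf3 to Odf2 had a log2 difference of 0.14, and 0.08 with the trend removed. Ropn1 to Ropn1l, a pair of related proteins with transcripts of similar length, held at 0.29 to 0.34 in all 18 libraries, with a log2 difference of 0.0068. Akap4 to Akap3, the sheath scaffold pair, held at 2.28 to 2.61, with a log2 difference of -0.04. Fscb to Akap4 had a log2 difference of 0.06, and 0.07 with the trend removed. In AOS against control alone, Fscb to Akap4 and Fsip1 to Fsip2 were higher without overlap, both before and after the removal. In HFD_STZ_AOS against HFD_STZ these ratios overlapped in either case.

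**Figure D4:**
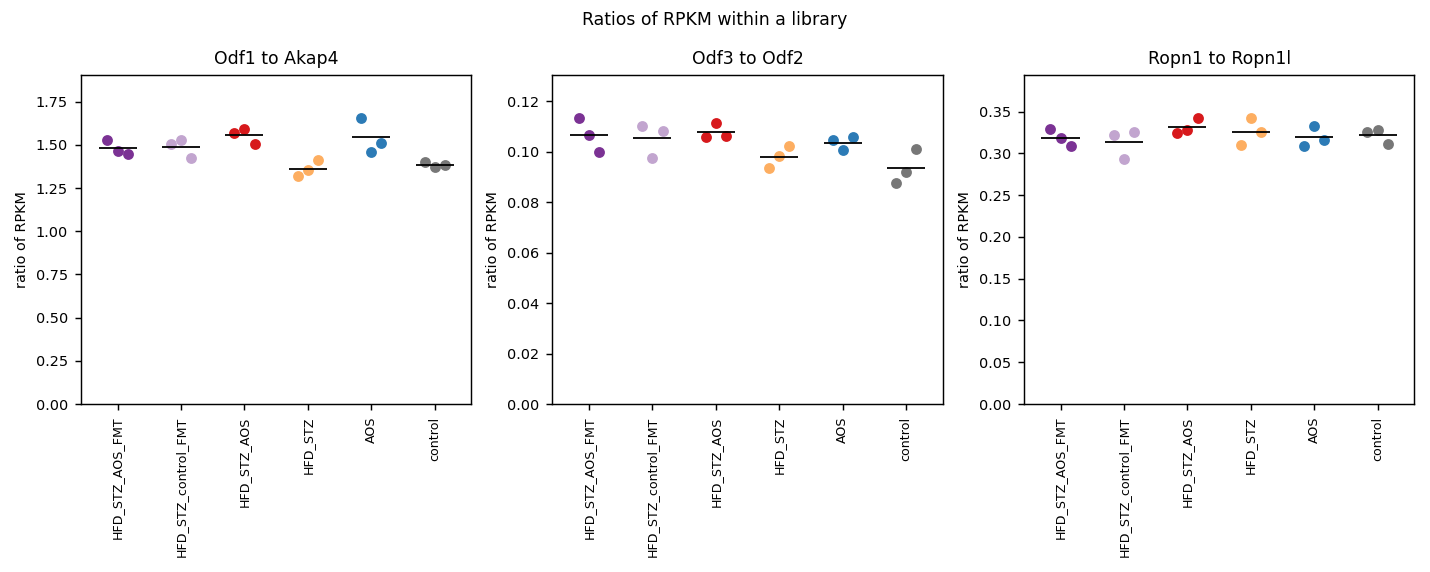
Ratios of RPKM between genes within a library (vertical axes, from 0) in the 6 groups (horizontal axes); points are libraries and bars are means of 3. Odf1 to Akap4 is at 1.46 to 1.66 in the libraries of HFD_STZ_AOS and AOS and at 1.32 to 1.41 in those of HFD_STZ and control, Odf3 to Odf2 overlaps between them, and Ropn1 to Ropn1l stays level.

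Other genes of the tail and of the cells that make it were taken from lists of known members, for the comparison with AOS over 6 libraries against 6. Beside the counts that follow, 43% of all genes tested were higher there and 2.34% were called. Of 15 other genes of the fibrous sheath, 12 were higher and 3 lower, with a median of 0.03, and 1 was called. That gene was Gapdhs, the sperm form of a glycolytic enzyme held in the sheath, at 1187 ± 42 RPKM in libraries with AOS and 1068 ± 52 RPKM in those without (SD, n = 6 each). It rose by 0.15 ± 0.04 on the log2 scale (limma, adjusted p = 0.0460), and the call was lost in 15 of 20 other settings, where its adjusted p was 0.0510 to 0.126, while the difference stayed between 0.11 and 0.17 over all 20. Tsga10, a sheath protein, had -0.11 ± 0.03 (adjusted p = 0.0598). Of 19 tested genes of the dense fibres, tektins and midpiece, 12 were higher and 0 were called; Gpx4, a selenoprotein of the mitochondrial capsule, came nearest at 0.15 ± 0.04 (adjusted p = 0.0520).

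Of 18 genes of the axoneme and its assembly, among them Ift88, Ift140, Wdr60 and Meig1, 15 were lower with AOS and 3 were called as fallen. Over all genes tested 43% were higher and 2.34% were called, and of the 10854 with transcripts over 1700 bases 35.9% were higher. The summed level of the 18 overlapped, at 4135.1 to 4630.7 RPKM (median 4442.6) with AOS and 4068.5 to 4504.2 RPKM (median 4225.9) without. The 3 called were Wdr60 (-0.22 ± 0.04), Cfap43 (-0.14 ± 0.03) and Hydin (-0.14 ± 0.04), with limma adjusted p values of 0.0272, 0.0384 and 0.0477. These calls were lost in 8, 10 and 17 of 20 other settings, among them the removal of the length trend. With it removed, Wdr60 stood at -0.18 ± 0.04 (adjusted p = 0.0847), Cfap43 at -0.08 ± 0.03 (adjusted p = 0.201) and Hydin at -0.05 ± 0.03 (adjusted p = 0.496). Of 14 elongating spermatid markers, 13 were higher and 5 rose past the threshold. These 5 were Prm3, the transition protein genes Tnp1 and Tnp2, and the kinases Tssk2 and Tssk6. Tnp2 rose by 0.29 ± 0.06 (adjusted p = 0.0277) and Tssk6 by 0.13 ± 0.03 (adjusted p = 0.0415). Their transcripts are short, from 410 bases for Prm3 to 1388 for Tssk2, and with the length trend removed none of the 5 was called, at differences of 0.08 (Tssk6) to 0.19 (Prm3). Without the 4 libraries high in Crisp1 none of the 5 passed either (adjusted p = 0.0604 to 0.121), but their differences were of similar size. Prm3 then stood at 0.37, against 0.35 with all libraries, Tnp2 at 0.27, against 0.29, Tnp1 at 0.21, against 0.25, Tssk2 at 0.16, against 0.14, and Tssk6 at 0.13 in both. Over 20 other settings, many of them with a single library left out, the calls of the 5 were lost in 9 (Tnp2) to 14 (Tssk6).

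The summed level of the 14 elongating spermatid markers was 54535 to 62469 RPKM with AOS and 46769 to 54440 RPKM without (6 libraries each). These ranges did not overlap, but they lay only narrowly apart. Of single genes tested 3.26% were separated in this way, 1.16% with the libraries with AOS higher. This sum was not computed with the length trend removed. The summed level of the 15 round spermatid markers overlapped, at 2300.4 to 2591 RPKM with AOS and 2335 to 2507 RPKM without, and 8 of 15 were higher. Beside such counts, 43% of all genes tested were higher and 2.34% were called. Of 14 markers of spermatocytes, the cells that become spermatids through meiosis, 9 were lower and 2 fell past the threshold. Those 2 were Sycp1 and Sycp2, which encode proteins of the synaptonemal complex. Sycp1 stood at 55.6 ± 2.26 RPKM with AOS and 66.3 ± 4.65 RPKM without, and Sycp2 at 72.7 ± 3.06 RPKM with AOS and 83.9 ± 4.51 RPKM without (SD, n = 6 each). Their log2 differences were -0.25 ± 0.05 and -0.20 ± 0.04 (limma, adjusted p = 0.0275 and 0.0235). With the length trend removed they stood at -0.22 and -0.15 and were not called (adjusted p = 0.0705 and 0.0900). Their calls were lost in 7 (Sycp1) and 8 (Sycp2) of 20 other settings, most of them with a single library left out. The summed level of the 14 spermatocyte markers was 659 to 721 RPKM with AOS and 680.0 to 765 RPKM without. All 10 Leydig cell markers were lower with AOS, at a sum of 2622 to 4232 RPKM against 3573 to 4569 RPKM, and 0 were called. None of the 10 Leydig markers was under 1 RPKM in every library. The part of these cell types in the differences of the 10 genes was not tested.

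With the diet and STZ over 6 libraries against 6, 64.7% of all genes tested were higher and 2.85% were called. Of 15 other sheath genes 4 were higher and 1 was called, Gsta4, a glutathione transferase, at 0.26 ± 0.06 (limma, adjusted p = 0.0390). That call was lost in 14 of 20 other settings, at adjusted p values of 0.0504 to 0.191, with differences of 0.22 to 0.31 over all 20. Of 14 elongating spermatid markers 6 were higher, and Car2 alone was called, with -0.23 ± 0.05 (adjusted p = 0.0385), a call lost in 12 of 20 other settings. Of the 18 genes of the axoneme and its assembly 4 were higher, and the 1 called was Spag16, a protein of the central pair, at 0.11 ± 0.03 (adjusted p = 0.0347). Of 15 round spermatid markers 9 were lower, and the 1 called was Acr, the acrosomal protease acrosin, at -0.13 ± 0.03 (adjusted p = 0.0478). These calls were lost in 14 (Spag16) and 13 (Acr) of 20 other settings. Hba-a1, an alpha globin with a near-identical copy, was higher at 0.61 ± 0.14 (adjusted p = 0.0379), the 1 called of 4 tested erythrocyte markers, and its call was lost in 13 of 20. Of 13 Sertoli cell markers 12 were higher and 1, Defb19, was called, a call lost in 14 of 20 other settings. Their summed level was 1159 to 1295 RPKM in the libraries with the diet and STZ and 1028 to 1127 RPKM in those without. Of single genes tested 1.85% were separated over 6 libraries against 6. None of the 13 was under 1 RPKM in every library, and the part of Sertoli cells or of blood cells in the values of the 10 genes was not tested.

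Of 6399 other tested genes with a mean of at least 10 RPKM, the 5 whose levels over the 18 libraries most resembled the mean pattern of the 10 genes were Klhl10 (Pearson r = 0.854), Fam170a (0.810), Tex30 (0.806), Nlrp14 (0.805) and Nt5c1b (0.800). Each r is a description over 18 libraries, which share their scaling. Klhl10, a testis gene of a ubiquitin ligase, was as steady as they were, at 281 ± 12.5 RPKM in the 6 libraries with AOS and 280.5 ± 7.94 RPKM in the 6 without (SD).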

How the data were processed

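RNA of 18 testis libraries, 3 in each of 6 groups taken from the labels, was sequenced. Per the labels' protocols, testes were frozen, Trizol and a spin column yielded the RNA, and libraries followed Illumina's standard route. The tool Bowtie 0.12.2 and the build mm10 are named, per the submitters' processing notes. Strand use, annotation and counter are not given in the sources used here. Values per gene symbol stood in 1 table that the authors deposited, taken as RPKM from the values themselves: they are not whole, their library sums differ, and their steps scale with gene length. RPKM divides by length and library total, so a shift in abundant or long transcripts moves all other values, and near-identical or overlapping genes cannot be told apart.

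Of 20985 rows, 6 with repeated symbols were left out. A minimum of 1 RPKM in 3 or more libraries left 13874 genes, tested on log2(RPKM + 1), which understates changes of low genes, with limma 3.58.1 in R 4.3.3: 1 coefficient per group over all 18 libraries, a mean-variance trend, 12 residual and 3.71 prior degrees of freedom, two-sided tests, and Benjamini-Hochberg adjustment within a comparison at 0.05. Comparisons were 6 pairs of groups, both main effects, their interaction and an F test. The test was checked on simulated data with noise drawn independently for each gene. Those data hold no length trend, so the check does not cover one. Positions and transcript lengths came from GENCODE vM21 (mm10), and 97.9% of tested genes had a length.

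Alternatives were scaling by median ratios, no filter, robust empirical Bayes, a pseudocount of 0.1, the replicate number as a block, a fit restricted to the groups compared, removal of each library's lowess trend on transcript length (span 0.3), and leaving out each library. Leaving out the 4 libraries above 100 RPKM of Crisp1, and both changes to the ratios other than leaving out single libraries, were added after seeing the data. All 10 genes are named. Of each other list, up to 3 members with the smallest p were to be named, as were the 5 genes of highest correlation with the 10; other called members were named after their values were seen. The 10 genes and all lists were chosen with earlier results of these data known. Depth limits precision as approximate read numbers, which cover counting error only. Figures were made with Python 3.11.15 and matplotlib 3.10.9.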

Additional observations from a re-analysis of the deposited data

How the results depend on the processing

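None of the 10 genes was called in any of the 10 comparisons under any setting, with 1 exception. Leaving out single libraries gave 0 to 1 called genes in the comparison of AOS over 6 libraries against 6, where Fsip2 was called without replicate 3 of HFD_STZ (log2 difference -0.21). Of the differences given above, none that had passed the threshold changed its sign, but small ones of 5 of the 10 genes that had not passed it did. With libraries scaled by median ratios, Odf2 and Fscb stood at 0.0062 and 0.0077 with AOS, and Odf3 and Ropn1 at -0.026 and -0.013 in HFD_STZ against control. With the length trend removed, these values were 0.025, 0.014, -0.027 and -0.014. Without the 4 libraries high in Crisp1, Fscb stood at 9.8e-06 with AOS, and Ropn1l at 0.0074 between the transfers. With single libraries left out, Fscb ran from -0.033 to 0.0072 with AOS, Odf3 from -0.041 to 0.057 between the transfers, and in HFD_STZ against control Odf3 ran from -0.034 to 0.044 and Ropn1 from -0.0095 to 0.053. The log2 difference of the ratio of Odf1 to Akap4 with AOS was 0.17 and moved to 0.087 with the length trend removed, stood at 0.18 without the 4 libraries high in Crisp1, and ran from 0.15 to 0.19 with single libraries left out.

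Counts over all genes moved more, and the cause was not tested. With AOS, limma called 325 genes, 0 to 565 under other settings and 0 to 374 with a library left out. With the diet and STZ it called 396, against 36 to 416 and 110 to 695. With AOS, the count of called elongating spermatid markers was 5 and ran from 0 to 7. The F test called 6 genes, and up to 157 with a library left out. With the replicate number as a block, 0 of the 10 genes were called in every comparison, and over all genes 418 were called with AOS, 388 with the diet and STZ and 10 by the F test. Same-numbered libraries of different groups deviated together in 11 of 45 pairs (correlation over 0.1, range -0.25 to 0.41, median 0.0005). Different-numbered ones did so in 13 of 90 (range -0.35 to 0.38, median -0.01). The labels state no pairing, so the numbers entered only as the block above. Depth is known only as an approximate value from the smallest values of low genes, not per library.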
